A study of Caenorhabditis elegans with 66 samples.

Results

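Recurrent background regions were defined as stretches of the Caenorhabditis elegans genome at which chromatin immunoprecipitation followed by sequencing (ChIP-seq) of untagged N2 worms gave a listed peak again and again. The peaks of the 6 N2 immunoprecipitated (IP) libraries of dataset 2, 3 from 48 h larvae and 3 from 72 h adults, were merged wherever they shared at least 1 bp, which gave 4997 regions. A region was a member when at least 4 of the 6 lists had a peak in it, and 1227 regions (24.6%) met that rule. These regions are called recurrent N2 regions below, and the 3770 regions found in 1 to 3 lists are called the other N2 regions. The N2 lists chose the members, so every value from those 6 lists is a description and carries no test.

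The study mapped subunits of SNAPc, the complex that activates small nuclear RNA (snRNA) genes, in 33 IP libraries, 3 for each of 11 groups, each with its own input library. The tagged groups were snpc-1.1::3xflag at 56 h, a strain with snpc-1.2::3xflag together with snpc-4::aid and Psun-1::tir1 at 72 h (the aid strain), snpc-1.2::3xflag at 72 h, snpc-4::3xflag; snpc-1.3(-) at 48 h, snpc-4::3xflag at 48 h, snpc-4::3xflag; snpc-1.2(-) at 72 h and snpc-4::3xflag at 72 h. The untagged groups were N2 at 48 h and 72 h in dataset 2, N2 at 72 h in dataset 1 and N2 at 56 h in dataset 3. Worms at 48 h were L4 larvae, at 56 h young adults and at 72 h gravid adults, and whole worms were used except at 56 h, where germline nuclei were. The aid strain carries a degron on SNPC-4 and the TIR1 ubiquitin ligase subunit under the promoter of the germline gene sun-1. Whether auxin was added is not given in the sources used here. SNPC-4 was tagged in dataset 2, SNPC-1.2 in dataset 1 and SNPC-1.1 in dataset 3.

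SNAPc binds promoters of snRNA genes and recruits RNA polymerase II or III, and in nematodes it also serves spliced leader RNA and piRNA genes. SNPC-4 is its DNA-binding core subunit, and SNPC-1.3, SNPC-1.2 and SNPC-1.1 are related to the vertebrate subunit SNAPC1. An IP from a strain that lacks the tag is the usual control for where chromatin is recovered without the tagged protein. Active promoters and heavily transcribed short genes are known in many organisms to be recovered in such controls.

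The libraries differed in list length, and read depth is unknown. The 6 N2 lists of dataset 2 held 2370, 2930 and 947 peaks at 48 h and 2236, 1400 and 4229 peaks at 72 h, and they placed a peak in 1007, 1177 and 676 recurrent N2 regions at 48 h and in 1097, 922 and 1206 at 72 h. SNPC-1.1 replicate 3 stood apart from its group, with 1504 peaks against 14912 and 10238 in replicates 2 and 4, and N2 replicate 4 of dataset 3 held only 28 peaks. The label text of N2 replicate 2 at 56 h gives SNPC-1.2 as the target, unlike the other 56 h IP libraries. The labels do not tie libraries to separate cultures, and part of a culture was taken at 48 h and the rest grown on, so lists of both ages may share a culture.

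Recurrence was graded. Of all merged regions 2316 were in 1 list, 931 in 2, 523 in 3, 454 in 4, 369 in 5 and 404 in all 6. The rule requires a list of each age, since each age has 3 lists: 404 had all 3 lists of each age, 264 had 2 lists at 48 h and all 3 at 72 h, 239 had 2 of each, 159 had 1 at 48 h and 3 at 72 h, 105 had 3 and 2, and 56 had 3 and 1. The recurrent N2 regions were also longer, with a median of 568 bp (interquartile range 450 to 805 bp, range 300 to 7878 bp), against 338 bp for the other N2 regions. Each member's level was taken as the median, over the N2 lists that held it, of the authors' fold of IP over input. This fold ran from 1.57 to 5.46 with a median of 2.23 over the members, against a median of 1.89 for the other N2 regions.

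At the threshold, the members in exactly 4 lists with the lowest fold were a region at ain-2, whose product belongs to the GW182 family of the microRNA machinery (fold 1.57), a region 1292 bp from mfb-1 (1.61) and a region at pqn-74 (1.62). Just outside it, the regions in exactly 3 lists with the highest fold were at hcp-3, which encodes the centromeric histone (3.54), 131 bp from aly-2 (3.09) and 12 bp from prp-40 (3.06). The hcp-3 region had its 3 lists at 72 h, with folds of 3.54, 2.70 and 5.09, and none at 48 h. A fold just outside the rule could therefore be well above one just inside it.

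The recurrent N2 regions were spread over the genome. Chromosome I held 226, II held 198, III held 215, IV held 202, V held 175, X held 210 and the mitochondrial genome held 1. Coordinates are those of build WBcel235. The 2 large piRNA clusters of chromosome IV were taken as 4.5 to 7 Mb and 13.5 to 17.2 Mb. They held 59 recurrent N2 regions (4.81%) and 181 of the other N2 regions (4.80%), while they make up 6.18% of the annotated span. The N2 summits of 682 recurrent N2 regions (55.6%) lay within 500 bp of an end of a protein-coding gene, against 50.9% of the other N2 regions. Of those 682, the summit was inside the gene in 110, against 612 of 1919 such regions among the other N2 regions. A further 229 (18.7%, against 25.8%) lay deeper inside a protein-coding gene and 316 (25.8%, against 23.3%) over 500 bp from any. The annotation used here gives no strand, so starts and stops of genes were not told apart.

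Each region was given 1 gene class, the first in a fixed order that began with short RNA classes. The largest class was protein-coding genes other than histone and ribosomal protein genes, with 570 recurrent N2 regions (46.5%, 95% Wilson interval 43.7% to 49.3%), against 54.7% of the other N2 regions. A further 325 (26.5%, 24.1% to 29.0%) overlapped no annotated gene, against 30.5%. Several short non-coding RNA classes had a larger share. Genes for transfer RNAs (tRNAs) were in 97 (7.91%, 6.52% to 9.55%), against 5.25% of the other N2 regions. The tRNA share did not rise steadily with recurrence: from 1 to 6 lists it was 3.41%, 7.20%, 9.94%, 7.71%, 10.3% and 5.94%. Genes for small nucleolar RNAs (snoRNAs), which guide RNA modification, were in 72 (5.87%, 4.69% to 7.33%), against 1.27%. Genes for snRNAs, including the SmY RNAs of nematode trans-splicing, were in 18 (1.47%, 0.930% to 2.31%), against 0.424%. SL2 spliced leader RNA genes were in 8 (0.652%, 0.331% to 1.28%), against 0.133%. The intervals cover counting error only and no test was made, since the class was read in regions chosen by the same lists. Recurrent N2 regions are longer, which gives them more room to overlap a gene, and the fixed order favours the classes ranked first. The part of width in these shares was not tested.

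**Figure D1:**
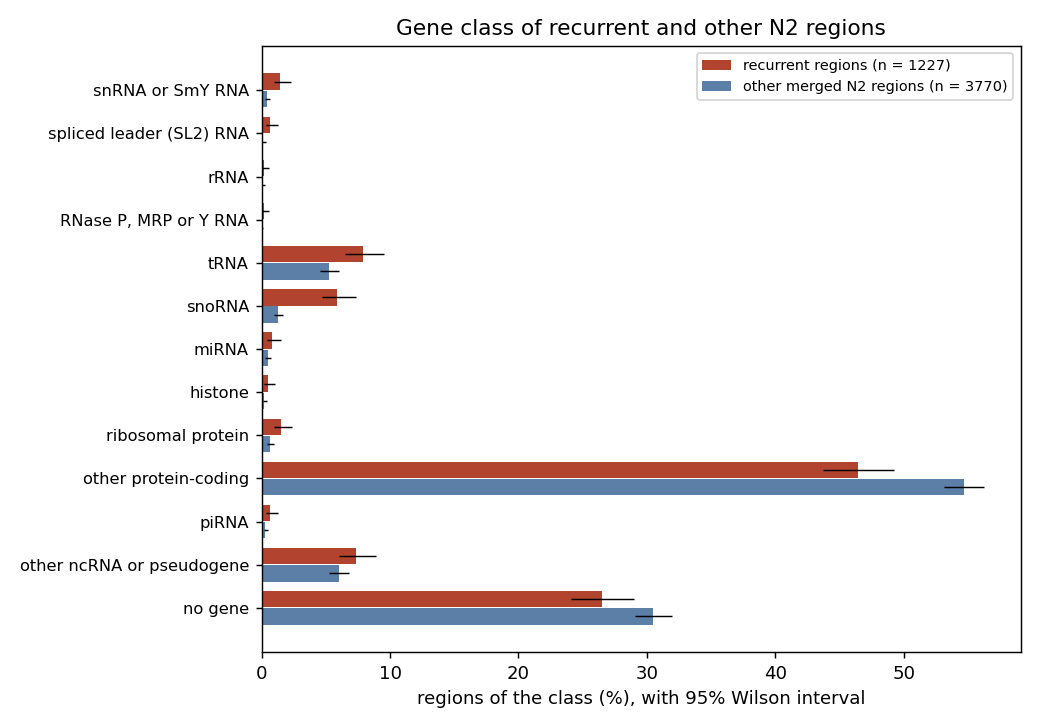
Percent of regions (x axis) in each gene class (y axis) for the 1227 recurrent N2 regions, above, and the 3770 other N2 regions, below. Lines are 95% Wilson intervals. The tRNA, snoRNA, snRNA and SL2 RNA classes take a larger share of the recurrent regions, and other protein-coding genes and regions without a gene a smaller share. Recurrent regions are longer, and regions are classed over their full width.

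Smaller classes were the ribosomal proteins with 19 recurrent N2 regions (1.55%, against 0.663% of the other N2 regions), microRNAs with 10 (0.815%, against 0.477%), histones with 6 (0.489%, against 0.212%), piRNA genes without a gene of a class ranked before them with 8 (0.652%, against 0.292%), and other non-coding RNAs or pseudogenes alone with 90 (7.33%, against 5.99%). Any non-coding RNA or pseudogene outside the named classes was present in 26.5% of recurrent N2 regions, against 14.4%. The classes also differed in how far they recurred: 5 of 6 histone, 6 of 8 SL2 RNA and 13 of 18 snRNA regions were in all 6 N2 lists, whereas 24 of 97 tRNA regions and 176 of 570 other protein-coding regions were.

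Read from the genes' side, a recurrent N2 region held 10 of 18 SL2 RNA genes and none of 12 SL1 RNA genes. It held 19 of 100 snRNA and SmY genes (19.0%), 138 of 634 tRNA genes (21.8%), 74 of 344 snoRNA genes (21.5%), 22 of 78 ribosomal protein genes (28.2%), 11 of 72 histone genes (15.3%), 16 of 261 microRNA genes (6.13%), 804 of 19833 other protein-coding genes (4.05%) and 27 of 15363 piRNA genes (0.176%). Both rpr-1, the RNase P RNA gene, and mrpr-1, the RNase MRP RNA gene, were in recurrent N2 regions. SL1, tRNA and 5S rRNA genes have near-identical copies, and how reads from such copies were mapped is not given in the sources used here, so their counts describe listed peaks only.

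Among lists of highly expressed protein-coding genes, 28 of 109 translation genes (25.7%) lay in a recurrent N2 region, among them eef-1A.1, eef-2 and 22 ribosomal protein genes, against 837 of all 19983 protein-coding genes (4.19%). So did 7 of 17 genes of glycolysis and gluconeogenesis (aldo-2, enol-1, gpd-2, gpd-3, gpi-1, pck-1 and pck-2), 3 of 10 heat shock genes (hsp-1, hsp-90 and hsp-110) and ubq-1, a polyubiquitin gene. The counts for 3 other strongly expressed families, 5 of 174 collagen genes (2.87%), none of 6 vitellogenin genes and none of 31 major sperm protein genes, were near what that 4.19% gives for lists of their size. Of the tissue marker lists, none of 13 intestinal, 8 hypodermal, 7 sperm or 8 neuronal genes was in a recurrent N2 region. Among the others, 1 of 11 body wall muscle genes (act-4) and 1 of 10 germline genes (puf-5) were. These counts too were near what 4.19% gives for such short lists. The intestinal list includes the vitellogenin genes and the sperm list some major sperm protein genes, so they are not separate from those families.

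The recurrent N2 regions with the highest N2 fold lay at protein-coding genes in 5 of the top 10. At tos-1, a splicing target gene (V:9342858-9344656), the N2 folds were 4.66, 4.06 and 3.34 at 48 h and 6.25, 7.36 and 8.74 at 72 h. At rpl-3, for a large-subunit ribosomal protein, with acs-19 (III:3864893-3868128), they were 5.46, 4.81 and 3.36 at 48 h and 5.41, 4.64 and 9.10 at 72 h. At cdc-48.1, for an AAA ATPase of protein degradation (II:10563148-10563797), they were 4.11, 4.48 and 2.71 at 48 h and 4.61, 4.59 and 7.04 at 72 h. In each of these the lowest value was 48 h replicate 3 and the highest was 72 h replicate 3, which are the libraries with the shortest and the longest N2 list. Another of the top 10 lay at linc-128, a long non-coding RNA gene, with N2 folds from 3.18 to 6.74. The rest lay at tasp-1, at the pseudogene K08F11.6, at hsp-1, for an HSP70 family chaperone, 50 bp from mog-4, at the non-coding RNA gene C30E1.9 and 44 bp from cox-5B, with median N2 folds of 4.62, 4.61, 4.45, 4.37, 4.24 and 4.23.

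The SNPC-4 lists had a peak in nearly all recurrent N2 regions. The mean over 3 libraries was 98.6% ± 0.339 in snpc-4::3xflag; snpc-1.3(-) at 48 h, 98.2% ± 0.294 in snpc-4::3xflag at 48 h, 96.3% ± 1.89 in snpc-4::3xflag; snpc-1.2(-) at 72 h and 97.9% ± 0.170 in snpc-4::3xflag at 72 h (SD, n = 3 libraries each). In the other N2 regions the means were 67.9% ± 1.51, 66.1% ± 1.68 and 58.0% ± 5.09 in the first 3 of these groups, and the 72 h snpc-4::3xflag libraries had 67.1%, 65.2% and 67.1%. The 3 libraries of every SNPC-4 group were all higher in the recurrent than in the other N2 regions. Recurrent N2 regions are longer, which gives a peak more room to overlap them. Where only a SNPC-4 summit inside the region was counted, the 72 h means were 97.9% ± 0.205 for the recurrent and 62.3% ± 0.934 for the other N2 regions. A longer region also has more room to hold a summit, so this count does not separate width from recurrence.

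**Figure D2:**
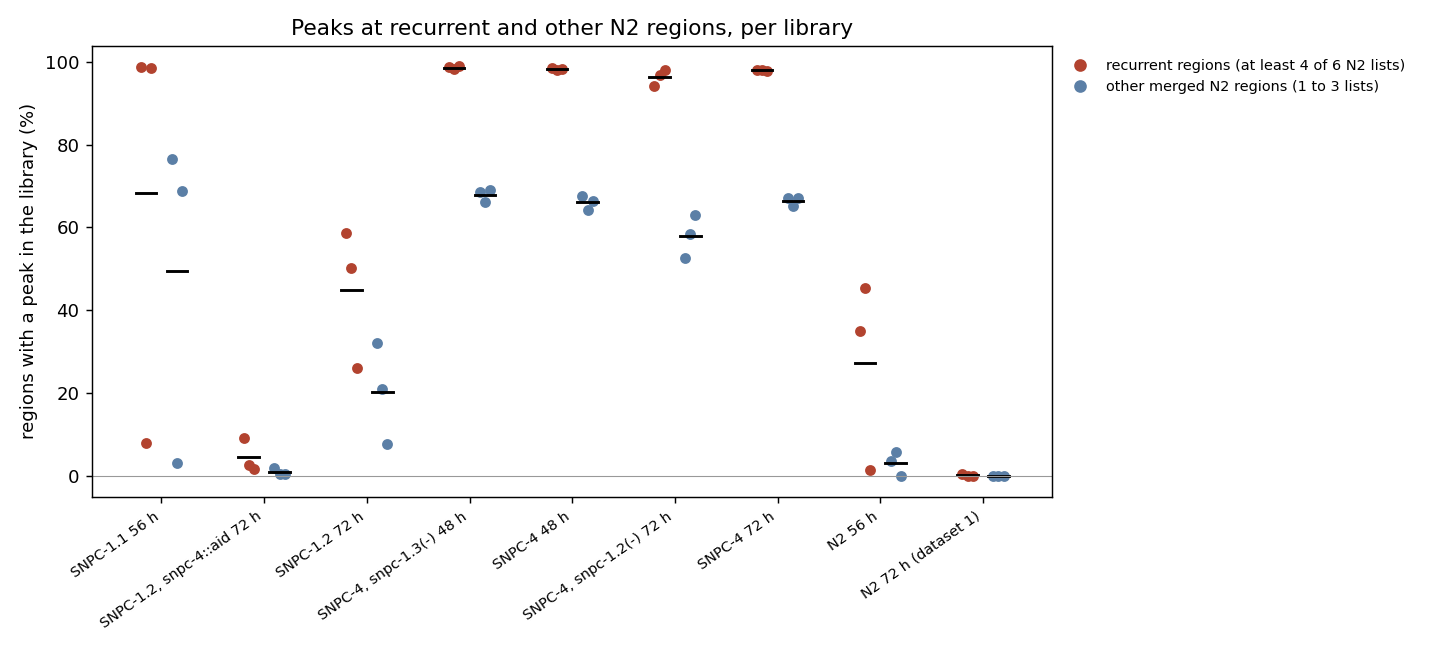
Percent of regions with a listed peak (y axis) in each library of 9 groups (x axis), for recurrent N2 regions (left point set of each pair) and other N2 regions (right point set); points are libraries and bars are means. The 12 SNPC-4 libraries lie between 94.2% and 98.9% for recurrent N2 regions, and SNPC-1.1 replicate 3 lies at 7.91%, far from 98.8% and 98.5% in the other libraries of its group.

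A peak in at least 2 of the 3 lists of a group was used as that group's call. By it, 1211 recurrent N2 regions were called in snpc-4::3xflag; snpc-1.3(-) at 48 h, where 75.5% of all 4997 merged N2 regions were called. In snpc-4::3xflag at 48 h 1206 were called (74.3% of all merged regions), in snpc-4::3xflag; snpc-1.2(-) at 72 h 1192 (67.7%) and in snpc-4::3xflag at 72 h 1201 (74.3%). All 12 SNPC-4 lists had a peak in 1132 recurrent N2 regions (92.3%), against 1632 other N2 regions (43.3%). No SNPC-4 list had a peak in 4 of 1227 recurrent N2 regions and in 705 of 3770 other N2 regions. Absence from every SNPC-4 list was thus rarer in the recurrent than in the other N2 regions, most of which also had a SNPC-4 peak. Seen from the other side, the recurrent N2 regions took up 13.6% to 16.8% of the regions in each of the 12 SNPC-4 lists.

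SNPC-1.1 lists of germline nuclei had a peak in 98.8%, 7.91% and 98.5% of the recurrent N2 regions in replicates 2, 3 and 4 (mean 68.4% ± 52.4), against 76.4%, 3.24% and 68.9% of the other N2 regions (mean 49.5% ± 40.2). Without replicate 3 the means were 98.6% and 72.6%. At least 2 of the 3 lists had a peak in 1199 recurrent N2 regions, against 73.7% of all merged regions. Those 1199 are the regions found in both replicates 2 and 4.

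SNPC-1.2 lists of adult worms had a peak in fewer of them, 58.7%, 50.2% and 26.0% in replicates 1 to 3 (mean 45.0% ± 17.0), against 32.2%, 20.9% and 7.82% of the other N2 regions (mean 20.3% ± 12.2). At least 2 of 3 lists had a peak in 616 recurrent N2 regions, against 27.5% of all merged regions. No SNPC-1.2 list had a peak in 476. In the aid strain the SNPC-1.2 lists had a peak in 9.29%, 2.77% and 1.79% (mean 4.62% ± 4.08), against 1.86%, 0.531% and 0.451% of the other N2 regions, and 30 recurrent N2 regions were called, against 1.00% of all merged regions.

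The untagged N2 lists that the rule did not use gave fewer peaks there. N2 germline nuclei at 56 h had a peak in 35.0%, 45.5% and 1.39% of the recurrent N2 regions in replicates 2, 3 and 4 (mean 27.3% ± 23.0), against 3.55%, 5.92% and 0.0531% of the other N2 regions (mean 3.17% ± 2.95). Without replicate 2, whose description names another subunit, the means were 23.4% and 2.98%. In all, 696 recurrent N2 regions (56.7%) were in at least 1 list of N2 at 56 h, against 332 other N2 regions (8.81%), and 294 were in at least 2, against 6.42% of all merged regions. The short N2 lists of dataset 1 at 72 h, with 16, 2 and 2 peaks, touched 7 recurrent N2 regions and called 1 of them, against 0.0400% of all merged regions.

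The share of a list that lay in recurrent N2 regions ran the other way. They held 71.9%, 68.4% and 85.7% of the regions in the N2 lists at 56 h, so that most N2 peaks of germline nuclei fell in regions that also recurred in whole N2 worms. In the aid strain they held 47.6%, 55.6% and 51.1% of the SNPC-1.2 regions, against 20.3%, 23.7% and 19.2% in snpc-1.2::3xflag. In the SNPC-1.1 lists they held 10.1%, 7.13% and 14.5%. List lengths differ between these groups, and depth is unknown, so these shares were not tested against each other.

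The share of regions called was higher the more N2 lists held the region in every SNPC-4 group, in SNPC-1.1, in SNPC-1.2 and in N2 at 56 h. The median width also differed, from 294 bp in 1 list to 671 bp in 6, and its part in this was not tested. For SNPC-4 at 48 h the call was made in 54.3% of regions in 1 N2 list, 82.2% in 2, 92.7% in 3, 96.5% in 4, 99.2% in 5 and 99.5% in 6. For SNPC-1.2 at 72 h it was made in 14.4% of regions in 1 list and in 56.2% of those in all 6. For N2 at 56 h it was made in 0.259%, 0.644%, 2.87%, 7.71%, 19.8% and 46.0% from 1 to 6 lists. In the aid strain the share was 0.432%, 0.430% and 1.15% at 1 to 3 lists, 5 of 454 regions at 4 lists, and 2.98% and 3.47% at 5 and 6 lists, and in N2 of dataset 1 it was at most 0.220% and 0 at 5 and 6 lists. These groups share no library with the rule, but SNPC-4 and N2 of dataset 2 were processed in 1 dataset.

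**Figure D3:**
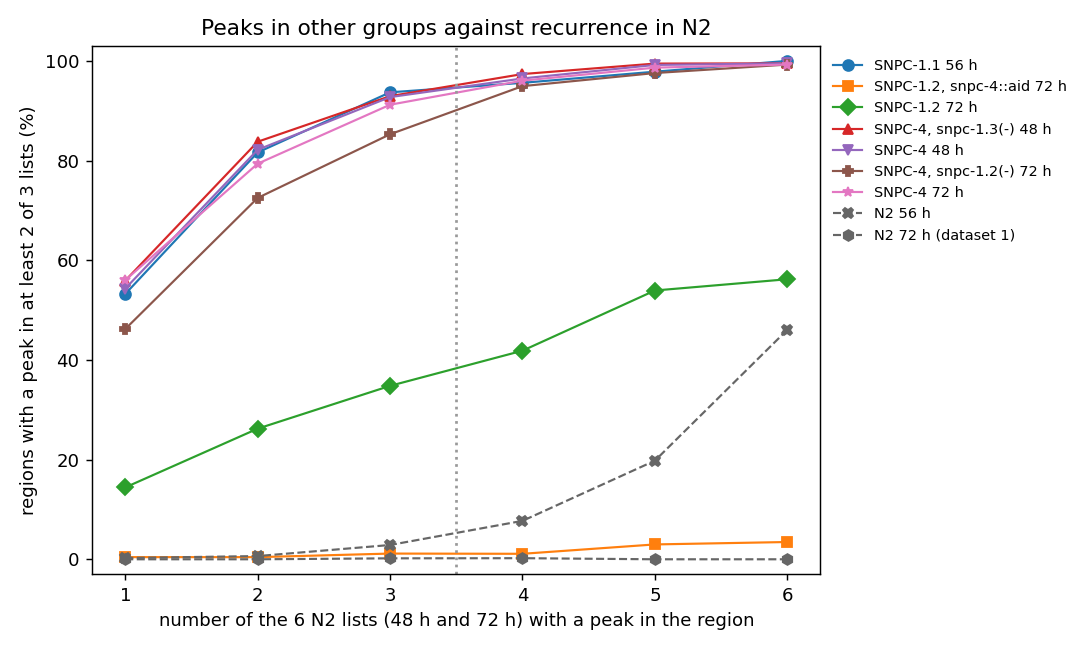
Percent of merged N2 regions called in a group, with a peak in at least 2 of its 3 lists (y axis), by the number of the 6 N2 lists with a peak in the region (x axis). The dotted line marks the threshold between 3 and 4 lists; SNPC-4 at 48 h climbs to 99.5%, SNPC-1.2 to 56.2% and N2 at 56 h to 46.0% at 6 lists, with no step at the threshold.

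Most summits fell close to those of N2. In the recurrent N2 regions the median distance between the SNPC-4 summit and the N2 summit was 18 to 20 bp in the 12 SNPC-4 libraries, and 91.8% to 93.7% of the regions had them within 100 bp. The median was 20, 30 and 21 bp in SNPC-1.1 replicates 2, 3 and 4, 23, 22 and 29 bp in SNPC-1.2 replicates 1 to 3, and 28, 24 and 50 bp in N2 at 56 h replicates 2, 3 and 4. In the aid strain it was 29, 35.5 and 37.5 bp. The share within 100 bp was 77.3% to 81.1% in the aid strain, 84.7% to 88.5% in SNPC-1.2, 84.5% to 91.8% in SNPC-1.1 and 64.7% to 86.2% in N2 at 56 h, where the lowest value is replicate 4 with 17 regions.

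The authors' folds set snRNA, SL2 RNA and RNase P and MRP RNA regions apart in the SNPC-4 and SNPC-1.1 lists, while class medians in the N2 lists lay between 1.99 and 3.10. Each fold is relative to the library's own input, so folds of different libraries are given side by side and were not tested. The median fold in SNPC-4 at 72 h was 136 over 18 snRNA regions, 188 over 8 SL2 RNA regions and 151 over the RNase P and MRP RNA regions, but 6.53 over 97 tRNA regions, 8.53 over 72 snoRNA regions, 10.0 over 19 ribosomal protein regions, 5.44 over other protein-coding regions and 5.11 over regions without a gene. In the N2 lists the same classes had medians of 2.38, 2.58, 2.51, 2.23, 2.46, 2.63, 2.20 and 2.18. In SNPC-1.1 the medians were 97.9 for snRNA, 143 for SL2 RNA, 4.83 for tRNA and 4.99 for other protein-coding regions. In SNPC-1.2 they were 3.94, 3.74, 3.07 and 3.30 for the same classes, which lie close together.

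**Figure D4:**
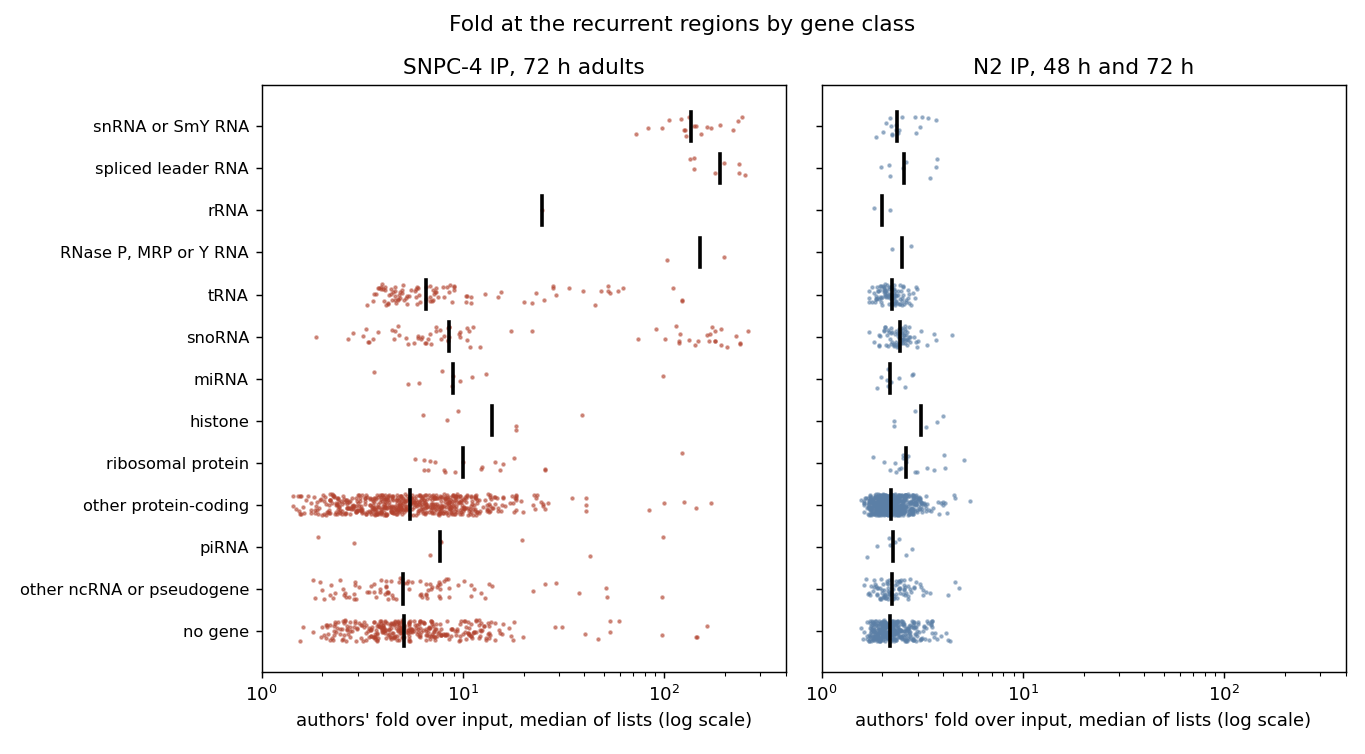
Authors' fold of IP over input (x axis, log scale) for each recurrent N2 region by gene class (y axis), as the median over the SNPC-4 lists at 72 h (left) and over the N2 lists at 48 h and 72 h (right); black bars are class medians. The snRNA, SL2 RNA and RNase P and MRP RNA regions sit above 50 in SNPC-4 and between 1.86 and 3.73 in N2.

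Of the 1227 regions, 78 had a SNPC-4 fold of 50 or more at 72 h, a limit chosen after the values were seen. They comprised all 18 snRNA, all 8 SL2 RNA and both RNase P and MRP RNA regions, with 24 of 72 snoRNA, 8 of 97 tRNA, 5 of 570 other protein-coding and 7 of 325 regions without a gene, 3 of the other non-coding class, and 1 each of the microRNA, ribosomal protein and piRNA classes. Their N2 folds had a median of 2.35 (1.62 to 3.73), against 2.23 (1.57 to 5.46) for the 1135 regions whose SNPC-4 fold was lower. The N2 fold of these 2 sets overlapped almost wholly, while their median SNPC-4 folds were 134 and 5.48.

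SNPC-1.1 replicate 3, the list that stood apart, had a peak in all 18 snRNA, all 8 SL2 RNA and both RNase P and MRP RNA regions. It had a peak in 25 of 72 snoRNA and 11 of 97 tRNA regions, but in 14 of 570 other protein-coding, 9 of 325 regions without a gene and 0 of 19 ribosomal protein regions. The 97 recurrent N2 regions in that list had a median SNPC-4 fold of 118 at 72 h, against 5.42 in the 1130 that it lacked. Its list also held fewer recurrent N2 regions than those of the untagged N2 at 56 h in replicates 2 and 3, which held 430 and 558.

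Named members show the same split. At sls-2.1, an SL2 RNA gene (II:5844507-5845470), the folds were 331, 24.2 and 188 in SNPC-1.1, 195, 196 and 253 in SNPC-4 at 48 h and 236, 204 and 266 in SNPC-4 at 72 h, against 2.91, 3.34 and 3.64 in N2 at 48 h and 4.79, 3.82 and 6.69 in N2 at 72 h. SNPC-1.2, of dataset 1, had 6.28, 6.29 and 5.63 there, above all these N2 values of dataset 2 but the highest. N2 of dataset 1 listed no peak there, in lists of 16, 2 and 2 peaks. At sup-6, annotated as an snRNA gene (II:12944269-12945287), they were 284, 21.7 and 187 in SNPC-1.1 and 244, 169 and 261 in SNPC-4 at 72 h, against 3.77, 2.96 and 4.75 in N2 at 72 h. At rpr-1 (I:13463703-13464304) they were 222, 19.2 and 126 in SNPC-1.1 and 199, 176 and 230 in SNPC-4 at 72 h, against 2.70, 2.33 and 3.68 in N2 at 72 h. The snoRNA gene F59C6.15 (I:10516789-10517734) had 260, 226 and 300 in SNPC-4 at 72 h, against 3.57, 3.68 and 6.26 in N2 at 72 h. In all of these the tagged SNPC-4 values lay far above the N2 values. Not all snoRNA regions were of this kind. Those at hsp-1 and rpl-7A had higher median N2 folds than F59C6.15 but lower SNPC-4 folds at 72 h. These were 22.0, 19.5 and 23.6 at hsp-1, and 17.5, 16.9 and 17.3 at rpl-7A.

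The tRNA, ribosomal protein and general protein-coding members named here had tagged folds nearer to those of N2. Their classes also held members with SNPC-4 folds of 20 or more at 72 h. Such folds were seen in 19 of 97 tRNA, 3 of 19 ribosomal protein and 19 of 570 other protein-coding regions. At the tRNA genes T23F1.t1 and T23F1.t2 (V:15464993-15465365) SNPC-4 at 72 h had 11.0, 9.61 and 11.6, against 2.82, 2.59 and 4.35 in N2 at 72 h, and SNPC-1.1 had 6.41 and 8.15 with no peak in replicate 3. At rpl-3 SNPC-4 at 72 h had 18.0, 15.3 and 19.0, against 5.41, 4.64 and 9.10 in N2 at 72 h. At tos-1 SNPC-4 at 72 h had 14.5, 12.9 and 17.2, against 6.25, 7.36 and 8.74. The groups did not overlap at any of these members. At icl-1, which encodes glyoxylate cycle enzymes (V:723856-728280), the order was the other way, with 1.97, 1.98 and 1.92 in SNPC-4 at 72 h, against 2.71, 2.65 and 4.30 in N2 at 72 h. The histone genes his-67 and his-68 (I:9988583-9989352) fell between, with 38.9, 36.5 and 48.2 in SNPC-4 at 72 h, against 4.82, 3.56 and 5.41 in N2 at 72 h.

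**Figure D5:**
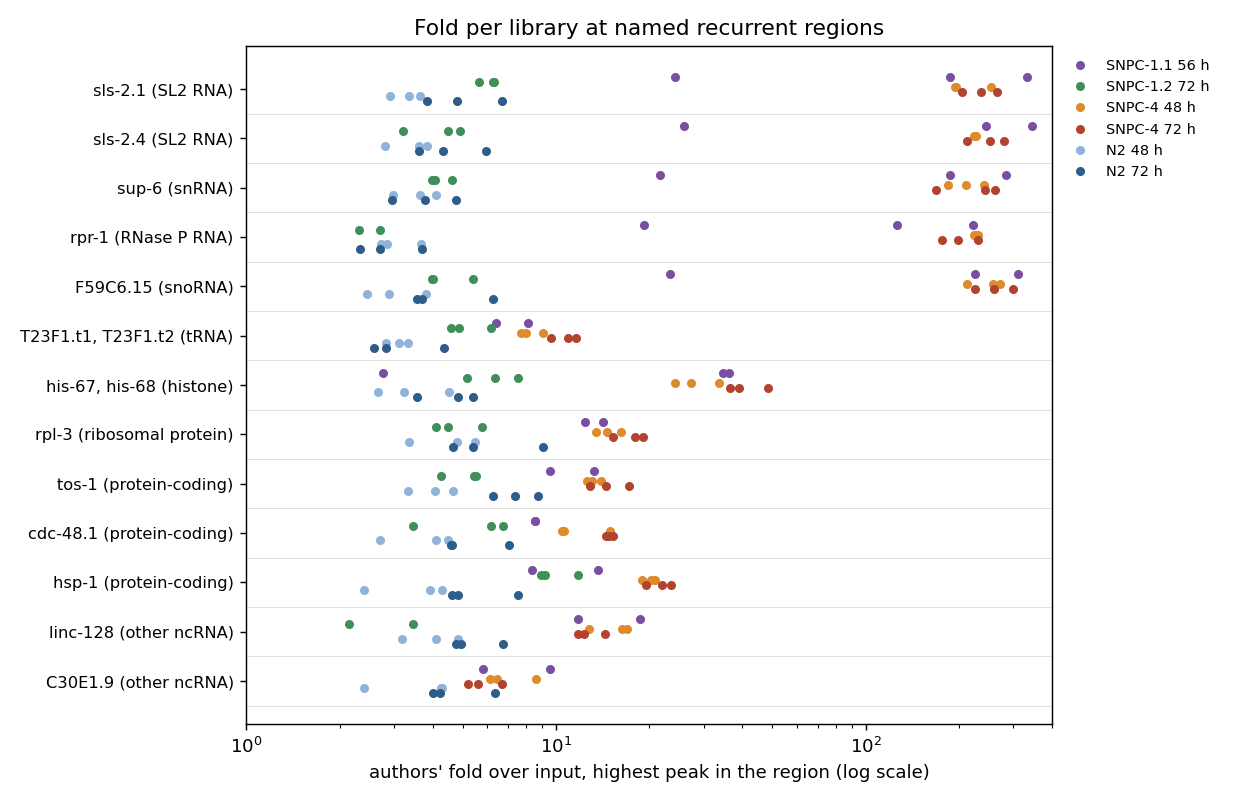
Authors' fold of IP over input (x axis, log scale) in each library that lists a peak at 13 named recurrent N2 regions (y axis), coloured by group. SNPC-4 and SNPC-1.1 folds at sls-2.1, sls-2.4, sup-6, rpr-1 and F59C6.15 exceed 100 except in SNPC-1.1 replicate 3, while N2 folds at all 13 regions stay below 10.

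Members with a higher N2 fold also had higher SNPC-4 folds and more SNPC-1.2 and N2 56 h calls. When the members were split into 4 nearly equal parts by N2 fold, the median SNPC-4 fold at 72 h was 3.75, 4.84, 6.80 and 9.38 from the lowest to the highest part. SNPC-1.2 was called in 26.7%, 43.3%, 54.2% and 76.5% of the 4 parts, and N2 at 56 h in 7.49%, 15.0%, 21.9% and 51.5%. Across regions, Spearman's rho with the N2 fold was 0.53 for SNPC-4 at 72 h (n = 1213 regions), 0.42 for SNPC-1.1 (n = 1221), 0.40 for SNPC-1.2 (n = 751), 0.14 for the aid strain (n = 126) and 0.58 for N2 at 56 h (n = 696). Regions are not independent replicates and their folds share peak width and list thresholds, so no p is given.

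Genes of 1 class were also set side by side inside and outside the recurrent N2 regions. Of 81 snRNA and SmY genes outside them, 63 were called in SNPC-4 at 72 h with a median fold of 33.3, whereas all 19 inside were called with a median of 140. All 10 SL2 RNA genes inside had a median fold of 188, against 97.4 for the 8 outside, all called. Of the tRNA genes, 127 of 138 inside were called in SNPC-4 at 72 h (median fold 5.99), against 422 of 496 outside (4.31), and 84 inside were called in SNPC-1.2, against 167 outside. All 74 snoRNA genes inside were called in SNPC-4 at 72 h, against 75 of 270 outside, and all 11 histone genes inside, against 11 of 61 outside. N2 at 56 h called 10 of the 19 snRNA genes inside and 0 of the 81 outside. The piRNA genes followed that order in SNPC-4 calls at 72 h but not in fold. Of them, 26 of 27 inside (96.3%) and 14039 of 15336 outside (91.5%) were called. Their median folds, over genes with a listed peak, were 12.4 inside and 23.2 outside. In SNPC-1.2, piRNA genes had medians of 4.31 inside and 9.36 outside, with 20 of 27 (74.1%) and 87.3% called, and SL2 RNA genes had 3.57 inside and 4.50 outside. None of these differences between genes was tested.

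Few recurrent N2 regions gained or lost SNPC-4 peaks with snpc-1.3, snpc-1.2 or age, and since nearly all were listed in every SNPC-4 group, few could. A region was counted as gained when all 3 lists of the first group and none of the second had a peak, and as lost in the opposite case; 3 against 3 libraries cannot give an exact two-sided p below 0.1, so no p was computed per region. The median fold over the members was 4.72 without snpc-1.3 and 4.79 in snpc-4::3xflag at 48 h, and 4.51 without snpc-1.2 and 5.90 in snpc-4::3xflag at 72 h, given side by side without a test. Without snpc-1.3 at 48 h 1 was gained (0.160% of all merged regions were) and 0 were lost (0.120%), and 1190 were in all 6 lists. The gained region lay at ftt-2, for a 14-3-3 protein, with folds of 1.96, 1.61 and 2.32 without snpc-1.3 and no peak in snpc-4::3xflag. The gain was 2 without null replicate 2 or without snpc-4::3xflag replicate 1 or 2, and the loss was 1 without snpc-4::3xflag replicate 2. Without snpc-1.2 at 72 h 1 was gained (0.0400%), at acer-1, and 3 were lost (1.40%), at Y44A6C.4, near nlf-1 and at dgk-2, for a diacylglycerol kinase, and 1142 were in all 6 lists. Loss without snpc-1.2 was seen in 67 of 3770 other N2 regions. The count of losses was 5 without null replicate 2 and 9 without null replicate 3, and that of gains was 2 without null replicate 1.

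At 72 h against 48 h, 3 recurrent N2 regions gained SNPC-4 (2.64% of all merged regions did) and 3 lost it (2.14%), with 1178 in all 6 lists. The gained ones were at glrx-10, hsp-6, a mitochondrial HSP70 gene, and hmg-12 with lin-29, with folds of 1.61 to 2.51 at 72 h. The lost ones were at F59G1.4, near Y48G8AR.8 and at phy-2, a collagen prolyl hydroxylase subunit gene. F59G1.4 had folds of 4.23, 3.57 and 5.30 at 48 h and no peak at 72 h. Of the other N2 regions 3.42% were gained and 2.76% lost. Counts of 1 to 3 moved when a library was left out, to 7 gains without SNPC-4 48 h replicate 1, and to 6 losses without SNPC-4 72 h replicate 1 and 5 without 48 h replicate 3.

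In the aid strain, 196 of the 288 recurrent N2 regions that all 3 SNPC-1.2 lists held in snpc-1.2::3xflag had no peak in any list, and 0 were gained (7.80% of all merged regions were lost and 0.0200% gained). Among the other N2 regions 194 of 250 such regions were lost. By class the losses were 8 of 9 snRNA regions, 3 of 4 SL2 RNA regions, 23 of 28 snoRNA regions, 18 of 35 tRNA regions, 82 other protein-coding regions, where 37 kept a peak, and 48 of 64 without a gene. None of 3 histone regions was lost, but these 3 kept a peak only in aid replicate 1, the longest aid list. The aid lists held 281, 81 and 67 peaks, against 9926, 8397 and 4791 in snpc-1.2::3xflag. Without SNPC-1.2 replicate 3, the shortest list of its group, the count of lost regions was 480. Gains numbered 2 without aid replicate 1 and 1 without aid replicate 3.

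Of the 30 recurrent N2 regions called in the aid strain, 20 lay in the piRNA clusters, which hold 59 members, and 10 lay among the 1168 members outside them. The other N2 regions had 16 of 181 inside and 4 of 3589 outside. SNPC-1.2 in snpc-1.2::3xflag was called in 57 of the 59 cluster members, against 559 of the 1168 outside. SNPC-4 was called in all 59 in each SNPC-4 group. Of the 181 other N2 regions in the clusters, SNPC-1.2 in snpc-1.2::3xflag was called in 151. SNPC-4 was called in 173 of those 181 at 48 h, 175 in the snpc-1.3 null, 174 at 72 h and 175 in the snpc-1.2 null. Regions in the SNPC-1.2 lists that covered cluster members were long, with a median width of 16437, 11664 and 1278 bp in SNPC-1.2 replicates 1 to 3, against 543, 424 and 367 bp at members outside. In SNPC-4 at 72 h the cluster medians were 8722, 8076 and 8842 bp, but in the aid strain they were 578, 472 and 381 bp and in SNPC-1.1 749, 480 and 587 bp. A SNPC-1.2 summit inside the member itself was listed in 57, 53 and 48 of the 59 in replicates 1 to 3. The same replicates listed a summit inside 111, 105 and 97 of the 181 other N2 regions in the clusters. At the member with the piRNA gene 21ur-11151 (IV:15530593-15530970) the folds were 9.48, 4.23 and 5.17 in the aid strain and 28.9, 28.0 and 26.1 in snpc-1.2::3xflag. N2 of dataset 2 had 2.17, 3.13 and 2.21 at 48 h, and 2.62 and 3.97 in replicates 1 and 3 at 72 h. N2 of dataset 1 listed no peak there. At sec-61.A, for a subunit of the ER translocon, which lies in the same cluster (IV:14824842-14825397), the folds were 4.81, 4.19 and 3.10 in the aid strain and 22.8, 22.7 and 21.1 in snpc-1.2::3xflag.

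SNPC-1.1 gained 35 recurrent N2 regions over N2 at 56 h (2.74% of all merged regions) and lost 0 (0.00%). Without SNPC-1.1 replicate 3 the gain was 510 and without N2 replicate 3 it was 57, and 1 was lost without N2 replicate 3 or 4. SNPC-1.2 gained 284 over N2 of dataset 1 (10.7%) and lost 0 (0.00%). Without SNPC-1.2 replicate 3 the gain was 585. The N2 lists of dataset 1, with 16, 2 and 2 peaks, lacked a peak in 1220 recurrent N2 regions. All 3 of them together held 0, so a loss could not be counted. All 3 SNPC-1.2 lists held 288, the most that could count as gained, so the near-empty N2 lists largely set these counts. All 3 SNPC-1.1 lists held only 97 recurrent N2 regions, which is the most that could count as gained, and 531 were in no N2 list at 56 h.

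A few members stood outside the common pattern. No SNPC-4 list had a peak at pck-1, for a phosphoenolpyruvate carboxykinase, although all 6 N2 lists did (48 h folds 1.93, 1.67 and 1.68; 72 h folds 2.08, 2.00 and 3.15), nor at pqn-41, at zfp-3 or in the mitochondrial region. SNPC-1.1 listed pck-1 with 2.23 and 1.93. No tagged list at all had a peak at pqn-41 and zfp-3. The mitochondrial region (MtDNA:980-6412), which spans genes such as ND1, COX3 and an rRNA gene, had folds of 1.35, 2.15 and 2.86 in the aid strain, 1.57 and 1.90 in SNPC-1.2 replicates 2 and 3, and 1.76 and 1.47 in N2 of dataset 1 replicates 1 and 3. At C30E1.9 (X:16929406-16932724), among the top 10 by N2 fold, no SNPC-1.2 list had a peak, and N2 at 56 h had 2.41, 3.17 and 3.09.

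All 3 N2 lists at 56 h had a peak in 15 members, among them tos-1, rpl-3, hsp-1, rps-19, sup-6, C30E1.9 and icl-1. Both N2 at 56 h in all 3 lists and N2 of dataset 1 in at least 1 list were found at tos-1 and C30E1.9, which had 2.72 and 2.19 in dataset 1 replicate 1. The longest members were a region over mnk-1 and pro-1 of 7878 bp and a region over ubq-1 of 5619 bp. Neither had a tagged fold above 8.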

How the data were processed

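Libraries were sequenced as paired-end 50-bp reads, per the labels' protocols. Peaks were deposited by the authors as 1 list per IP library; MACS2 2.1.2, deepTools and build WBcel235 are named in the submitters' processing notes, and the aligner is not given in the sources used here. Each deposited list gives the authors' fold of IP over input (a ratio), a −log10 q-value and a summit position (an offset score in bases). No counts are given, so depth is unknown and no floor can be set. The members, the gene lists and the comparisons were chosen with earlier results of these data known.

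The N2 peaks were merged when they shared 1 bp. A region had a peak in a library when a listed peak overlapped it by 1 bp. Group calls needed 2 of 3 lists, and gains and losses needed every list of a group and no list of its comparison group. Genes came from the RefSeq table for WBcel235 (46926 genes, without strand). Named regions were the 10 with the highest N2 fold, the top 3 of each class, those absent from SNPC-4 lists, those in all N2 lists at 56 h or in a list of N2 of dataset 1, those at the threshold, the 5 longest and those gained or lost; not all are printed. Since 3 libraries against 3 cannot give an exact two-sided p below 0.1, results are counts, percents and means ± SD over libraries, with 95% Wilson intervals for class shares. Replicates are those the labels number, and nothing ties them to separate cultures. The planned motif searches were not run and no sequence is printed, since no genome was used here. Overlap and merging were tested on simulated data. Alternatives for thresholds, overlap and left-out libraries are given in the closing section. Python 3.11.15, pandas 2.3.3, NumPy 2.4.6, SciPy 1.17.1 and matplotlib 3.10.9 were used.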

Additional observations from a re-analysis of the deposited data

How the results depend on the processing

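The 1227 recurrent N2 regions became 773 with at least 5 lists, 404 with all 6 and 640 when only N2 peaks with a fold of 2 or more counted; 5 other definitions gave 912 to 1750. Leaving out 1 N2 library and asking for 4 of the remaining 5 gave 792 to 1103, the lowest without N2 72 h replicate 3. The percent with a peak in SNPC-4 at 48 h, in the snpc-1.3 null, at 72 h and in the snpc-1.2 null was 96.5, 96.9, 95.7 and 92.7 with at least 3 lists and 99.4, 99.4, 99.3 and 99.2 with all 6. With at least 5 lists it was 99.3, 99.3 and 98.9 in the first 3 of these groups, and 96.5, 97.1 and 96.4 over bases covered by at least 4 lists. With library peaks of fold 2 or more it was 95.8, 96.0, 95.3 and 91.0, and with −log10 q of 3 or more 97.9 at 48 h and 97.6 at 72 h.

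With 1 library left out, the percent with a peak was 53.2 to 98.6 in SNPC-1.1, 2.28 to 6.03 in the aid strain, 38.1 to 54.4 in SNPC-1.2, 98.4 to 99.4 in the snpc-1.3 null, 98.0 to 99.4 in SNPC-4 at 48 h (from 98.1 where an N2 library was left out), 95.5 to 97.8 in the snpc-1.2 null, 97.7 to 98.9 in SNPC-4 at 72 h, 18.2 to 40.3 in N2 at 56 h and 0.0407 to 0.326 in N2 of dataset 1.

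With all 6 lists the class shares were 3.22% snRNA, 1.49% SL2 RNA, 5.94% tRNA, 7.67% snoRNA, 1.24% histone, 43.6% other protein-coding, 0.248% piRNA, 10.6% other non-coding and 22.3% no gene. Over bases covered by 4 lists they were 0.314% ribosomal protein, 34.1% other protein-coding, 9.11% other non-coding and 39.6% no gene, and with genes within 200 bp 2.61%, 58.5%, 5.30% and 14.6%. The other N2 regions, at full width, had 0.663% ribosomal protein and 30.5% no gene. Over covered bases these classes thus differed from the other N2 regions in the opposite direction to the main definition. Only the recurrent N2 regions were narrowed to covered bases, and a narrower region has less room to overlap a gene. The shares are therefore not measured alike, and no conclusion about recurrence is drawn from that direction. Without 1 library, other protein-coding was 43.4% to 47.0%. Shares of genes in a recurrent N2 region with at least 3 lists were 30.6% of tRNA, 5.55% of other protein-coding and 6.04% of other non-coding genes. With at least 5 lists they were 13.2% of tRNA, 14.8% of snoRNA, 3.45% of microRNA, 17.9% of ribosomal protein, 2.67% of other protein-coding, 0.104% of piRNA and 3.28% of other non-coding genes, and with all 6 lists 5.36%, 9.59%, 3.07%, 14.1%, 1.40%, 0.0716% and 1.97% in that order. With genes within 200 bp they were 52.6% of ribosomal protein, 5.75% of other protein-coding, 0.351% of piRNA and 5.01% of other non-coding genes.

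Alternatives for gains and losses were chosen after seeing the data. With at least 3 lists the snpc-1.3 null gained 2, the snpc-1.2 null lost 8, and 72 h against 48 h gained 10 and lost 16. With at least 5 these counts were 0, 0, 1 and 1, and SNPC-1.1 gained 21. With all 6 they were 0, 0, 0 and 0, SNPC-1.1 gained 10, SNPC-1.2 gained 129 over N2 of dataset 1 and the aid strain lost 77. Without 1 library, the snpc-1.3 null gained 1 to 2 and lost 0 to 1, the snpc-1.2 null gained 1 to 2 and lost 3 to 9, 72 h against 48 h gained 3 to 7 and lost 3 to 6, the aid strain gained 0 to 2 and lost 197 to 480, SNPC-1.1 gained 35 to 510 and lost 0 to 1, and SNPC-1.2 gained 284 to 585. Fewer or more lists change the number of members by construction; the cause of other shifts was not tested. No paired analysis was possible because the results come from no fitted test. Unknown depth limits any reading of a missing peak.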
